A study of Drosophila melanogaster with 2 samples.

Results

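The ecdysone receptor and early response genes are 9 protein-coding genes of Drosophila melanogaster, EcR, usp, br, Eip74EF, Eip93F, Eip63E, Kr-h1, crol and MsrA, out of 13945 on the 6 chromosome arms covered. They were followed in ChIP-seq of Glass, a DNA-binding zinc finger protein that photoreceptor cells of the eye need to develop, by taking every peak summit within the span of a gene extended by 1 kb to both sides. A peak is a stretch of the genome enriched in the chromatin that the antibody recovered, and its summit is the position of highest enrichment. Both samples came from whole pupae, 24 hour old and of both sexes, of a transgenic line that stably expressed Glass fused to GFP at its C terminus. The labels give 2 biological replicates of 1 group and no other condition, and their free text mentions an input control where the antibody and assay fields name ChIP of gl. The regulatory sequence that drives the transgene is not given in the sources used here. In chromatin of whole animals, binding in few cells and weaker binding in many cannot be told apart. The authors deposited a list of 30000 entries for each replicate, a pooled list of 30000 entries from both, and an optimal list of 4809 peaks. They thresholded the optimal list on reproducibility. Of its 4809 summits, 29 lay at the 9 genes. The height of a peak is the authors' signal value, and rank 1 is the highest signal value of a list. The optimal peaks were the 4809 pooled entries of highest signal value, down to 127.0. A single optimal peak therefore need not recur in both replicates: 4680 of the 4809 had an entry within 200 bp in both replicate lists.

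Ecdysone is the steroid hormone that times moulting and metamorphosis in insects. EcR, a nuclear receptor, binds the active hormone as a heterodimer with the product of usp, the fly ortholog of the vertebrate retinoid X receptors. The receptor switches on a small set of early genes, most of which encode transcription factors that in turn control late, tissue-specific genes. Pulses of the hormone occur at pupariation and again during pupal life, when the adult eye differentiates.

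A sequence is shown for 7 of the genes, at the strongest summit of each, because the comparisons of position, motif content and base composition refer to them. Eip93F site 2 is added as the summit before the other TSS of that gene, and Eip74EF site 6 for its motif match. Each is read from the plus strand of the dm6 assembly, as held in the NCBI RefSeq genome, and unless stated otherwise covers 50 bp to each side of the summit. Capitals in the crol and Eip74EF site 6 sequences mark matches to motifs that were searched by their letters. In the Eip93F site 3 and MsrA sequences, which are extended through the annotated transcription start site (TSS), the single capital is the first transcribed base. The other sequences hold no searched motif and have no capitals. Sites of a gene are numbered from its 5′ end to its 3′ end.
Eip93F site 3, chr3R:21972245-21972394: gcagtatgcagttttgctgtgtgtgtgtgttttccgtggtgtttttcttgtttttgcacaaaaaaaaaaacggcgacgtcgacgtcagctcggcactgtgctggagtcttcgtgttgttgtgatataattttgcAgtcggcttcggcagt
Eip93F site 2, chr3R:21948790-21948890: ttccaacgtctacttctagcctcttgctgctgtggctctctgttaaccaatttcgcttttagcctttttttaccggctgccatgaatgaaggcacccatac
Eip74EF site 4, chr3L:17578498-17578598: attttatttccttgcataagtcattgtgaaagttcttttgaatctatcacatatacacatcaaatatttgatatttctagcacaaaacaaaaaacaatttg
Eip74EF site 6, chr3L:17563829-17563929: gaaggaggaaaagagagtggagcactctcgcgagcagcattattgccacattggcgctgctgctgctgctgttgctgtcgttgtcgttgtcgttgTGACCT
Eip63E site 5, chr3L:3556457-3556557: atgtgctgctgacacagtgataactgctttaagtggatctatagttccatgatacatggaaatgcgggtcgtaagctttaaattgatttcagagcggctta
crol site 1, chr2L:11806839-11806939: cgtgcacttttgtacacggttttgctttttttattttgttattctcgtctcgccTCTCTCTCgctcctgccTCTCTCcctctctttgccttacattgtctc
Kr-h1 site 1, chr2L:6088488-6088588: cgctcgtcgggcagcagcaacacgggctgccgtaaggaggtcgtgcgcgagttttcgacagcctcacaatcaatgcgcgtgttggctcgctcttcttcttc
br site 1, chrX:1612057-1612157: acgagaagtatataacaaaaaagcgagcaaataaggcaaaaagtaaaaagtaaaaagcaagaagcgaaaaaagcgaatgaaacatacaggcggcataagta
MsrA site 1, chr3L:15510966-15511067: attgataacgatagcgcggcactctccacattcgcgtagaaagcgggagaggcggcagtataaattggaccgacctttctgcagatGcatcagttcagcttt

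An optimal summit was present at 8 of the 9 genes, all but usp. Across all 13945 protein-coding genes the share with an optimal summit was 23.1%. It was 32.9% among the 7017 genes with a span at least as long as that of MsrA, the shortest of the 9, and 60.9% among the 307 genes of 50 kb or more. EcR, br, Eip74EF, Eip93F and Eip63E were of that length, so the count for these 5 reads against the last share. Among the 4809 strongest entries of each replicate list, 7 of the 9 genes had a summit in replicate 1 and 8 in replicate 2, against 22.8% and 23.1% of all genes. The pooled list, which also holds background entries, had an entry at all 9 genes and at 62% of all genes. The 29 summits over 444 kb of extended span amount to 0.652 per 10 kb, against 0.359 per 10 kb over the whole arms. The genes differed widely, from 0 at usp and 0.109 at br to 1.32 at EcR and 2.41 at MsrA. EcR held 11 of the 29 summits and MsrA 1.

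**Figure D1:**
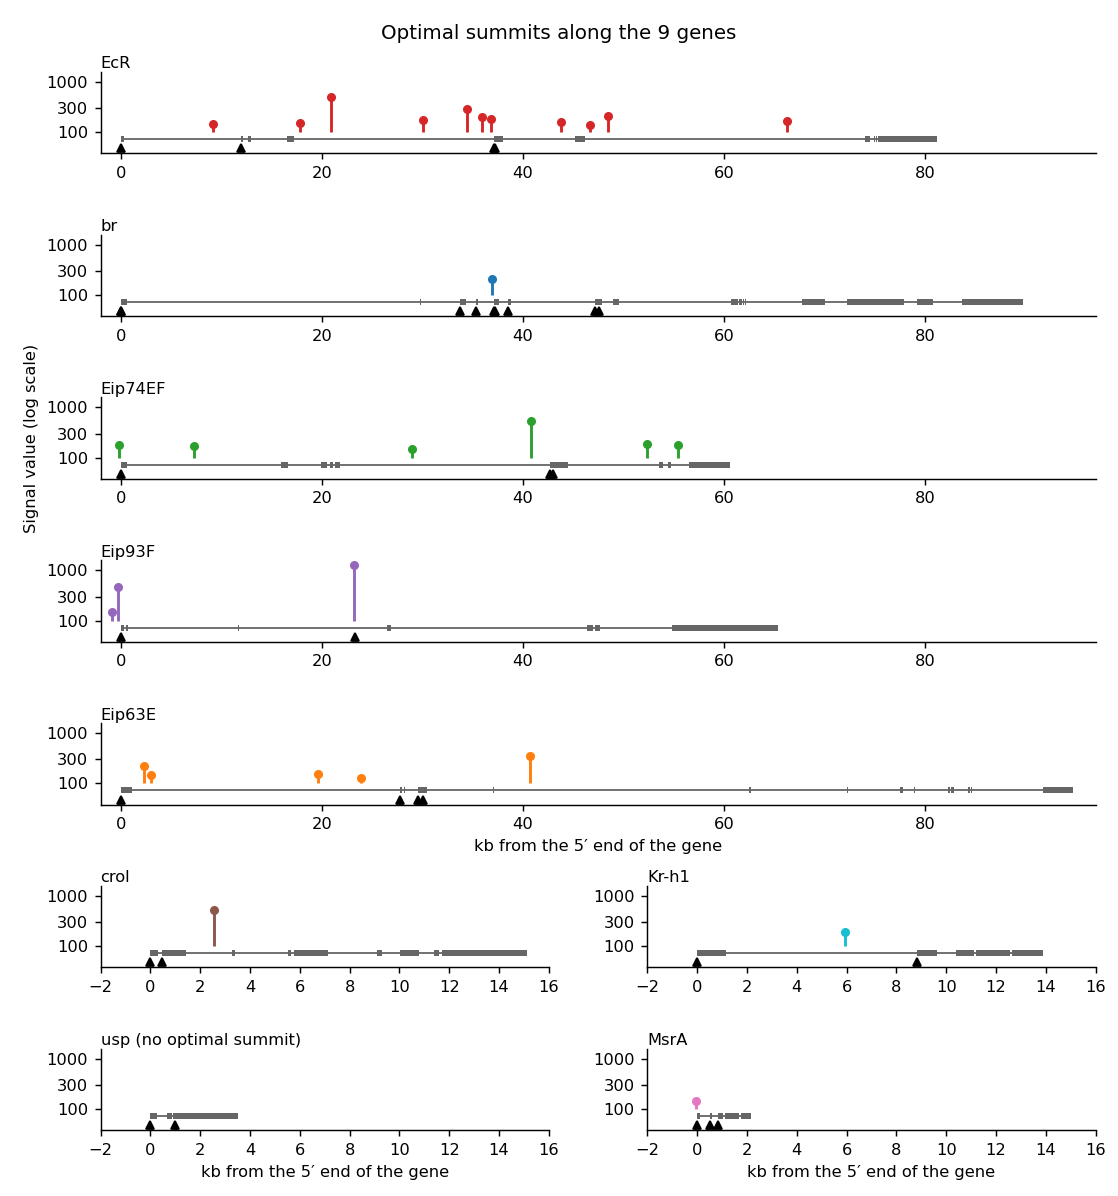
Each panel plots the optimal summits of a gene (dots on stems) against the distance from its 5′ end in kb, with the authors' signal value on a log axis that starts at 100; grey boxes are exons of any transcript, the grey line is the span and black triangles are TSSs. EcR carries 11 summits along its introns, br 1, and the highest stem is that of Eip93F at 1273.

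Of the receptor genes, EcR held 11 optimal summits and usp none. EcR (FBgn0000546, 2R 6087873 to 6169087, minus strand) spans 81.2 kb, with 6 annotated transcripts from 4 TSSs. All 11 summits lay in introns. EcR was 1 of 30 protein-coding genes with 11 or more, and of the 307 genes of 50 kb or more 23 did (7.49%). The density was 1.32 summits per 10 kb, against a median of 0.168 over those 307 genes.

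The summits of EcR were spread from 9.19 to 66.3 kb from its 5′ end. Site 1 (6159897) lay in the first intron of EcR-RA, 2768 bp before the TSS of EcR-RD and EcR-RE. Sites 2 to 7 lay between that TSS and the TSS of EcR-RB and EcR-RC, in introns of 3 transcripts. The last of these, sites 5, 6 and 7 (6134679, 6133112 and 6132212), were 2757, 1190 and 290 bp before the TSS of EcR-RB and EcR-RC, at signal values of 293, 202 and 184. Sites 8 to 11 lay in introns common to all 6 transcripts, the farthest 29067 bp from a TSS of EcR. Sites 4 and 5 were closer to a TSS of CG14589, which lies within the span of EcR, than to one of EcR itself. The distances were 1675 and 2624 bp to CG14589, against 7056 and 2757 bp to EcR. Site 11 was closer to a TSS of Ars2, at 17149 bp.

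The strongest summit of EcR was site 3 (2R 6148064 to 6148323, summit 6148191), 8938 bp inside the gene from the TSS of EcR-RD and EcR-RE. Its signal value was 504, rank 469 of 4809. It ranked 2038 in replicate 1, with a signal value of 133, and 136 in replicate 2, with 379.5, so that it stood among the strongest peaks in replicate 2 and near the middle of the optimal list in replicate 1. Site 5 went the other way, with rank 947 and a signal value of 213 in replicate 1 and rank 3346 and 77.3 in replicate 2. The other 9 summits had signal values from 139.7 to 209 in the optimal list. The TSS of EcR-RA, at the 5′ end of the gene, had its nearest optimal summit 9190 bp away, and the strongest pooled entry less than 1 kb from it, at 6169574, had a signal value of 79.4 and rank 9247.

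At usp (FBgn0003964, X 2038798 to 2042311, minus strand, 3.51 kb) the pooled list held 3 entries. The strongest, at 2041455 and 143 bp before the TSS of usp-RA, had a signal value of 119.8 and rank 5269, just below the lowest optimal signal value of 127.0. It ranked 5631 in replicate 1 and 4989 in replicate 2, below the 4809 strongest in both. Its −log10 q value was 4.10, the highest of the pooled list, which all optimal peaks also had. The entry 79 bp from the TSS of usp-RB had a signal value of 55.8 and a −log10 q of 1.43.

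Among the early transcription factor genes, Eip93F held the strongest summit of the 9 genes, Eip74EF held 6 summits and br held 1. Eip93F (FBgn0264490, 3R 21949114 to 22014539, plus strand, 65.4 kb) encodes a transcription factor required for the change from larval to adult programmes and for death of larval tissue. It has 2 TSSs, and an optimal summit lay before each. Site 3 (21972119 to 21972460), 84 bp before the TSS of Eip93F-RA and Eip93F-RC, had a signal value of 1273 and rank 49 of 4809. It ranked 88 in replicate 1, with a signal value of 578, and 36 in replicate 2, with 691. Site 2, 274 bp before the TSS of Eip93F-RB, had a signal value of 457 and ranked 923 and 356 in the replicates. Site 1, 562 bp farther upstream, was weak, with a signal value of 147 and ranks of 4154 and 5073. All 3 summits were less than 1 kb from one of these TSSs, and none lay deeper in the gene. The pooled list held 43 further entries over the extended span, the strongest, at 21960522 in an intron, with a signal value of 118.6.

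Eip74EF (FBgn0000567, 3L 17558672 to 17619325, minus strand, 60.7 kb) encodes an ETS-domain transcription factor in isoforms from different promoters. Site 1 lay 204 bp before the TSS of Eip74EF-RA, Eip74EF-RC and Eip74EF-RE, with a signal value of 183, and ranked 2599 and 2407 in replicates 1 and 2. Site 4 (17578548), in an intron 1922 bp before the TSS of Eip74EF-RB, was the strongest of the gene in the optimal list, with a signal value of 538 and rank 400. It ranked 152 in replicate 1, with a signal value of 466, but 2698 in replicate 2, with 87.8. Of the 29 summits, this site and site 3 of EcR were the 2 whose ranks in the replicates differed more than 5-fold, in opposite directions. The other 4 summits, all in introns and between 7298 and 13688 bp from a TSS of the gene, had signal values from 146 to 191. Sites 5 and 6 were nearer to a TSS of CycT, a neighbouring gene, at 9217 and 6091 bp.

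The gene br (FBgn0283451, X 1575132 to 1664869, plus strand), which encodes the Broad zinc finger proteins that specify pupal development, was the second longest of the 9 at 89.7 kb and had 1 optimal summit. Such a count was common among long genes, with 160 of the 307 genes of 50 kb or more having 1 or none (52.1%). The summit at 1612107 lay 201 bp before the TSS of br-RP and 234 bp before the TSS that 8 of the 16 transcripts share. It lies in an intron of br and also of Mur2B, an overlapping gene. The signal value was 209, rank 2247, with ranks of 2797 and 1860 and signal values of 106 and 108 in replicates 1 and 2. The TSS of br-RN, at the 5′ end, had no optimal summit within 1 kb, and the strongest pooled entry there, at 1574317, had a signal value of 109.7 and rank 5992. Among the 4809 strongest entries br had 1 summit in replicate 1 and 3 in replicate 2.

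**Figure D2:**
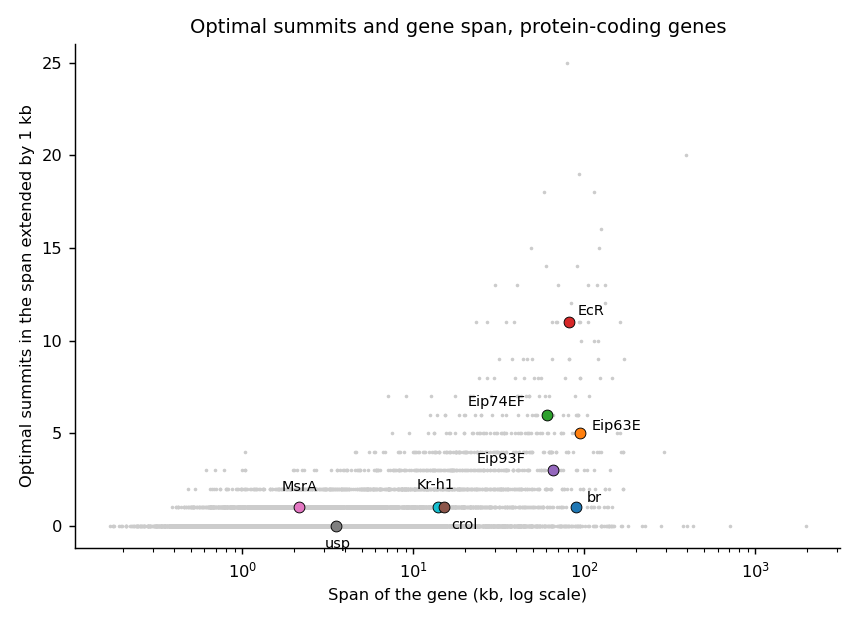
The number of optimal summits in the span extended by 1 kb is plotted against the span in kb on a log axis for 13945 protein-coding genes (grey), with the 9 genes in colour and named. At spans from 60.7 to 94.8 kb EcR had 11 summits, Eip74EF 6, Eip63E 5, Eip93F 3 and br 1.

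The remaining genes were Eip63E, Kr-h1, crol and MsrA. Eip63E (FBgn0005640, 3L 3515751 to 3610521, plus strand, 94.8 kb) encodes a cyclin-dependent kinase of the PFTAIRE type. All 5 of its summits lay in introns, none within 2 kb of one of its TSSs. The strongest, site 5 at 3556507, 10714 bp from a TSS and in an intron of all 14 transcripts, had a signal value of 349.8 and ranked 814 and 1492 in replicates 1 and 2. Sites 1 and 2 lay 740 bp apart in introns of 5 transcripts, with signal values of 222 and 149. Site 4 had the lowest signal value of the 29, 127.4, and ranked 4334 in replicate 1 and 7436 in replicate 2.

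The zinc finger gene crol (FBgn0020309, 2L 11794327 to 11809438, minus strand, 15.1 kb), induced by ecdysone in prepupae and needed for leg formation, had 1 summit at 11806889. It lay in an intron of all 9 transcripts, 2083 bp downstream of a TSS, with a signal value of 531 and rank 418. It ranked 482 and 388 in the replicates, with signal values of 294 and 241, and so was high in both. Kr-h1 (FBgn0266450, 2L 6082603 to 6096498, plus strand, 13.9 kb), a zinc finger gene that responds to juvenile hormone, had 1 summit at 6088538 in the long intron of Kr-h1-RA, 2874 bp before the TSS of Kr-h1-RB. Its signal value was 190.3, and it ranked 4492 and 1778. That summit was the only entry of the pooled list at Kr-h1, over 15.9 kb of extended span.

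MsrA (FBgn0000565, 3L 15511052 to 15513202, plus strand, 2.15 kb) encodes methionine sulfoxide reductase A, an enzyme that repairs oxidised methionine. Its single summit, at 15511016, lay 36 bp before the TSS of 4 of its 6 transcripts and in the 3′ UTR of the upstream gene gdl. The summit is thus outside the span of MsrA and was counted for it only through the 1 kb extension. The signal value was 145, with rank 5558 in replicate 1, below the 4809 strongest, and 3334 in replicate 2. The printed sequence holds TATAAA 28 bp before the first transcribed base, a hexamer looked for after the sequence was seen. It was the only 1 of the 31 TSSs of the 9 genes with TATAAA starting between 45 and 20 bp upstream on the transcribed strand, against 7.68% of the 19607 TSSs of protein-coding genes.

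Across the 9 genes the summits lay mostly away from promoters. Introns held 25 of the 29, and 4 were outside the gene, all upstream. A coding TSS was less than 1 kb away for 7 of the 29 (24.1%), against 46.5% of all 4809 optimal summits; over the strongest entries of the replicates the share was 24.6% ± 6.55 (SD, n = 2). More than 5 kb from any such TSS were 12 (41.4%), against 25.3%. Long genes offer more sequence far from a TSS, and these shares were not matched on gene length. Counted by TSS, 10 of the 31 TSSs of the 9 genes (32.3%) had an optimal summit within 1 kb, against 17.5% of all 19607. These 10 were both TSSs of Eip93F, all 3 of MsrA, 2 each of EcR and br, and 1 of Eip74EF. They are not separate sites, because nearby TSSs of a gene share a summit. The 3 of MsrA share that at 15511016, the 2 of EcR that at 6132212 and the 2 of br that at 1612107. Kr-h1, crol and Eip63E had optimal summits but none within 1 kb of their own TSSs.

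As a group the summits were somewhat lower than the optimal list. The median signal value of the 29 summits was 183, against 200.4 for all optimal peaks, and 11 of the 29 (37.9%) were in the stronger 2404 of the list. The strongest summit per gene was a different quantity: its median over the 8 genes with a summit was 427, against 231 over all 3224 genes with one. Genes with several summits have more chances of a high one, and this median was not matched on the number of summits.

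**Figure D3:**
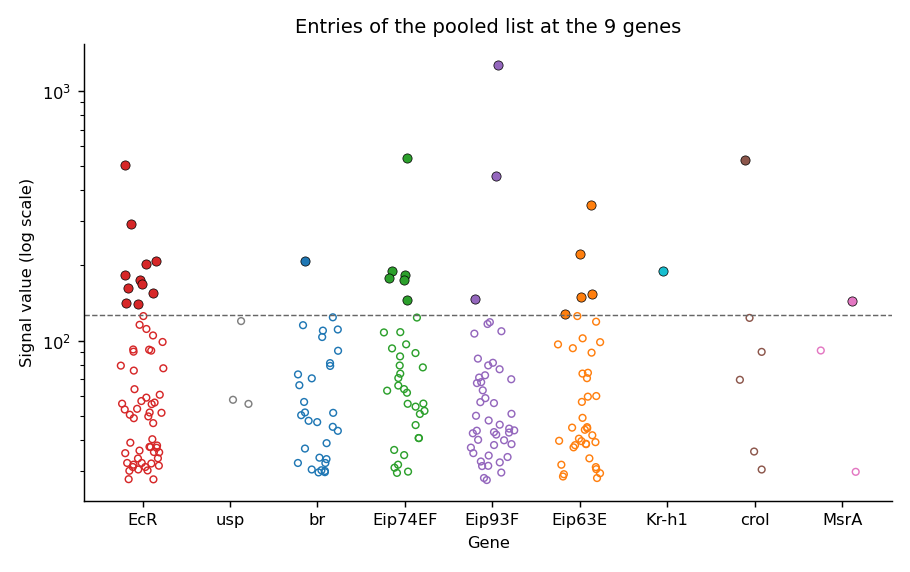
All entries of the pooled list at each gene are plotted by signal value on a log axis; filled dots are optimal peaks, open dots are other entries, and the dashed line is the lowest optimal signal value, 127.0. Horizontal scatter within a gene has no meaning. Apart from Kr-h1, every gene has open dots below the line, and the highest of those at EcR, usp, br, Eip74EF, Eip93F, Eip63E and crol lie between 118.6 and 125.5.

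Below the optimal threshold the 9 genes held 198 further pooled entries, of which 18 (9.09%) reached a −log10 q of 4.10, the maximum of that list, against 1481 of 25191 over the whole list (5.88%). The strongest at each gene, by signal value, was 125.5 at Eip63E, followed by EcR (125.4), br (124.0), Eip74EF (123.8), crol (123.4), usp (119.8) and Eip93F (118.6). At MsrA it was 91.4, and Kr-h1 had no such entry. None could exceed 127.0, because the optimal list takes all stronger pooled entries. EcR had the most of both, with 62 pooled entries and 11 optimal summits, and usp, MsrA, Kr-h1 and crol had at most 6 entries and 1 summit each. Between them, Eip93F had 46 entries and 3 summits, Eip63E 40 and 5, Eip74EF 35 and 6, and br 31 and 1. The order by density over the extended span differed. EcR had 7.45 pooled entries per 10 kb, MsrA 7.23, Eip93F 6.82, Eip74EF 5.59 and usp 5.44. Eip63E had 4.13, crol 3.51, br 3.38 and Kr-h1 0.629.

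The replicates could be compared site by site. All 29 summits had an entry within 200 bp in both replicate lists, as did 97.3% of all optimal peaks. Among the 4809 strongest of both replicates were 19 of the 29 (65.5%, against 63.3% of all), 4 were so in replicate 1 alone (13.8%, against 963 of all 4809) and 6 in replicate 2 alone (20.7%, against 739 of 4809 or 15.4%). The ranks leaned to replicate 2: 21 of the 29 summits ranked better there (72.4%), against 49.0% of the 4680 optimal peaks found in both lists. EcR contributed 9 of these 21, and all 11 of its summits were among the strongest 4809 of replicate 2, but 7 of replicate 1. In the replicate lists themselves EcR had 17 summits among the 4809 strongest of replicate 2 and 8 of replicate 1. Eip63E had 6 and 8, and Eip74EF had 7 in each. The Spearman rho between the ranks in both replicates was 0.361 across the 29 summits and 0.435 across the 4680 peaks; sites of a gene share their libraries and are not independent.

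**Figure D4:**
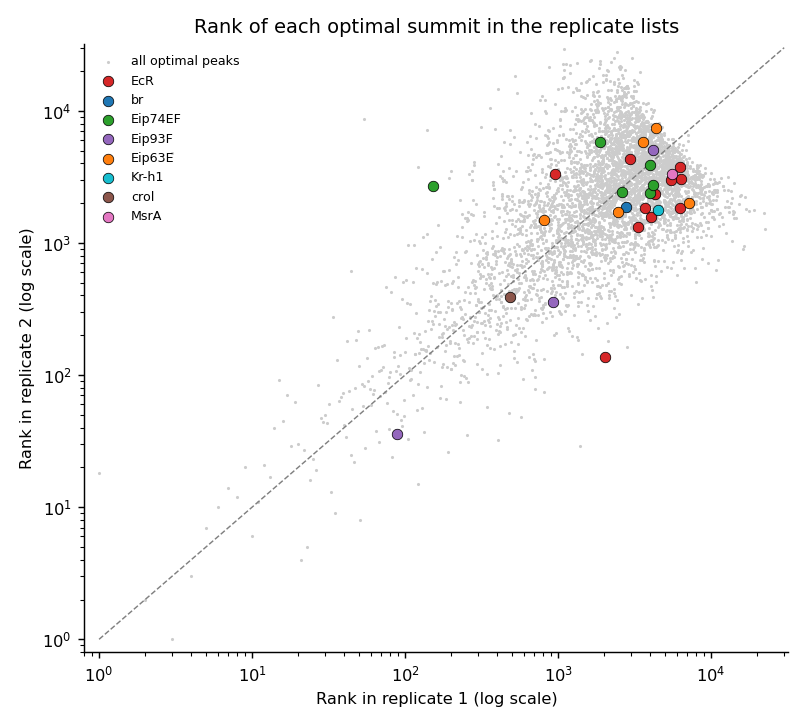
Each dot is an optimal summit at its rank in replicate 1 (x axis) and replicate 2 (y axis), both on log axes with rank 1 the strongest; grey dots are all optimal peaks found in both lists, coloured dots the summits of the 9 genes, and the dashed line marks equal ranks. Dots below the line rank better in replicate 2, as 21 of the 29 do; the coloured dots farthest from it are EcR site 3 (2038 and 136) and Eip74EF site 4 (152 and 2698).

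Base composition moved with the replicate in which a site ranked better. The GC content within 50 bp of the summit had a median of 34.7% over the 8 summits that ranked better in replicate 1 and 49.5% over the 21 that ranked better in replicate 2, and the ranges overlapped (24.8 to 54.5% and 33.7 to 62.4%). The extremes were the sites named above: the Eip74EF site 4 sequence printed above had 24.8% GC, the lowest of the 29, and EcR site 3 had 62.4%, the highest. Over all 4680 optimal peaks the medians were 31.7% and 44.6%. The share of peaks that ranked better in replicate 2 was 11.5% of the 1126 peaks below 30% GC and 86.7% of the 767 peaks at 50% or more. The Spearman rho of GC content with the log2 ratio of the rank in replicate 1 to that in replicate 2 was 0.711 across the 29 summits and 0.643 across the 4680 peaks, given as a description. With 200 bp to each side it was 0.511 and 0.561. The 9 genes' summits were GC-rich among the optimal peaks, with a median of 46.5% against 37.6%, and 22 of 29 had 40% or more (75.9%), against 42.5%. The part of base composition in the lean of these genes to replicate 2 was not tested.

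**Figure D5:**
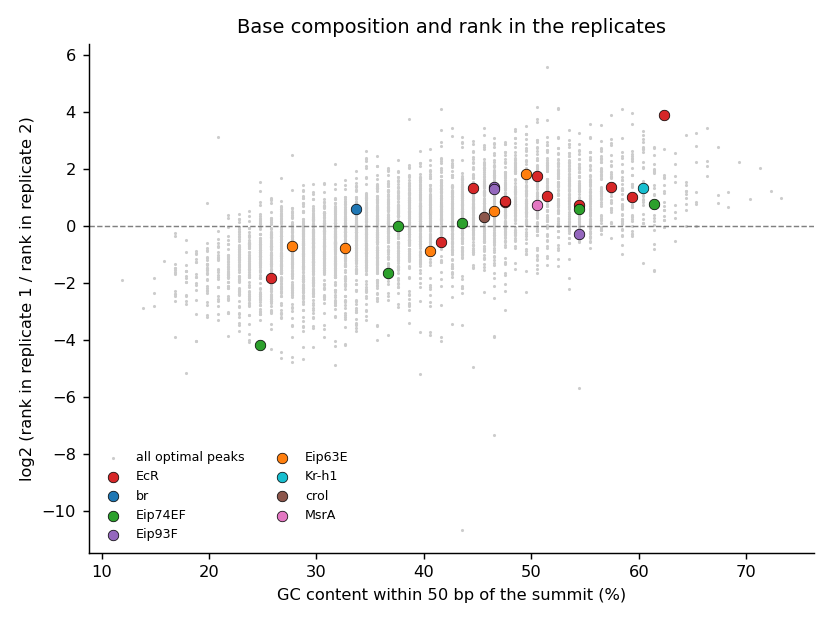
The GC content within 50 bp of each optimal summit (x axis, percent) is plotted against the log2 ratio of its rank in replicate 1 to its rank in replicate 2 (y axis); grey dots are 4680 optimal peaks, coloured dots the 29 summits of the 9 genes, and values above the dashed line at 0 rank better in replicate 2. In grey and colour alike the dots rise from left to right.

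Searched motifs lay within 50 bp of few of these summits, and the share depended on the window. The hexamer AGGTCA, the single-copy element that nuclear receptors such as EcR bind in pairs, lay within 50 bp of 1 of the 29 summits, Eip74EF site 6, at the edge of the window, where it reads TGACCT on the printed strand; it was at 1.95% of all optimal summits. The inverted and the direct repeat of AGGTCA with 1 base between its copies were at none of the 29 and none of the 4809. Only exact copies were searched, and with none among all 4809 there is no share to set the 29 against. The longer element CAAGGTCA, bound by receptors of the Ftz-F1 type, was at none of the 29 and at 0.125% of all. GAGAGA, the site of the GAGA factor, was at crol alone among the 29 (3.45%, against 7.88% of all), where 3 copies, 2 of them overlapping, read TCTCTC on the printed strand. CAAAGTCC, an 8-mer taken from an earlier analysis of these data, was at 1 of the 29, EcR site 3, and at 1.95% of all. Together 3 of the 29 windows (10.3%) held a searched motif, against 11.6% of all. With 100 bp to each side it was 11 of the 29 (37.9%), against 21.9% of all. Both strands were searched, CAAGGTCA contains AGGTCA, and the recognition sequence of Glass was not searched.

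Other genes of ecdysone signalling were described from 5 lists. An optimal summit was present at 11 of 18 other nuclear receptor genes, with 41 distinct summits. The strongest were at Hr4 (signal value 991), Eip78C (849), Eip75B (713, with 18 summits) and ftz-f1 (515, with 8), all in introns more than 9 kb from a TSS of the gene. That of Eip78C was 13532 bp from its own TSS but 4141 bp from a TSS of CG43218. Of 9 genes for coregulators of EcR, 6 had a summit. Smr, a corepressor, had 7 summits, the strongest at 708, and tai, a coactivator, had 12, the strongest at 394. TP53INP (235) and Ncoa6 (226) had 1 each. In replicates 1 and 2 that of TP53INP ranked 1092 and 9996, and that of Ncoa6 2077 and 2033.

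Of 10 genes for synthesis, uptake and turnover of the hormone, only Oatp74D, which encodes an importer of ecdysone, had a summit. It had 3, the strongest at 197. Of 28 other ecdysone-induced genes 6 had one, of which ImpL2 (855), vri (765), hid (516) and E23 (492) were the strongest. None of the Eig71E or Sgs genes, which are short late or larval glue genes, had one; the median span of that list was 0.926 kb, against 60.7 kb for the 9 genes. Of 8 juvenile hormone genes 3 had a summit, with Jheh1 and Jheh2 sharing a peak of 291 and gce, a hormone receptor gene, at 195. The summit of gce ranked 1726 in replicate 1 and 7845 in replicate 2. The shares of the 5 lists read against 23.1% of all protein-coding genes, and the lists differ in gene length.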

How the data were processed

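Peak lists of 2 biological replicates of Glass ChIP-seq, of the pooled replicates, and an optimal list thresholded by the irreproducible discovery rate were used, in dm6 coordinates. Chromatin was sonicated to between 200 and 800 bp, per the labels. Per the deposited text files, each list came from the alignments and a control shared by both replicates. The aligner, the peak caller and the read depth are not given in the sources used here. Depth is therefore unknown and no interval covers read counting. Signal values are the authors' own, deposited in each list, and describe peaks within it. The deposited −log10 q values are the authors' too. The column for p-values holds no value and was not used.

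Summits, 1-based, were assigned to the spans of Ensembl release 115 genes (BDGP6.54, the dm6 coordinates) extended by 1 kb. Sequence came from the same assembly at NCBI; of the annotated codons of the 9 genes 18 of 20 starts read ATG, and 18 of 18 stops read as stop codons. A summit was strong in a replicate when one of its 4809 strongest entries lay within 200 bp. Motifs were searched within 50 bp on both strands. No test was run: with 1 group there is no contrast, and the 9 genes, the lists and the motifs were chosen with earlier results of these data known. Genes are named by a rule: all 9, and up to 4 of each further list with the highest signal values. The comparison of GC content and the search for TATAAA were chosen after the data were seen. For 15 of 73 listed genes the symbol of the annotation was used. Counting was checked on simulated positions. Python 3.11.15, numpy 2.4.6, pandas 2.3.3, scipy 1.17.1 and matplotlib 3.10.9 were used.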

Additional observations from a re-analysis of the deposited data

How the results depend on the processing

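The count of genes with an optimal summit, 8, became 7 without the extension, 8 with 5 kb, and 6 in the stronger 2404 peaks, where Kr-h1 and MsrA had none; with a replicate left out it was 7 to 8. The 29 summits became 25 and 33 with those extensions and 11 in the stronger 2404 peaks, which holds fewer peaks by construction. With a replicate left out they were 30 to 41, mostly through EcR, which had 17 summits in replicate 2 and 8 in replicate 1. MsrA had none in replicate 1 or without the extension. The share strong in both replicates, 65.5%, was 48.3% within 100 bp and 100% in the stronger 2404 peaks. The share within 1 kb of a TSS was 24.1%, against 34.5% for 2 kb and 20 to 29.3% with a replicate left out. The share of summits with a searched motif, 10.3%, was 37.9% with 100 bp to each side, a longer window in which the share of all optimal peaks also rose, from 11.6% to 21.9%. Beyond that construction, the cause was not tested. No alternative gave usp a summit. No paired analysis was possible because there is 1 group. Read depth is unknown, so an absent summit at usp is one not called at this depth. Of 45 further counts by gene, 30 stayed within 1.5 times.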

Other observations

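Summits just beyond the 1 kb limit were not counted for the 9 genes. Between 1 and 5 kb outside the spans lay 4 optimal summits, all on the 5′ side. Those of Eip63E (1511 bp, signal value 188), Eip93F (3229 bp, 131) and Kr-h1 (3538 bp, 128) had a TSS of that gene as the nearest coding TSS. The one 2682 bp before MsrA, with a signal value of 989 and rank 102, was far higher than the summit counted for MsrA (145), but it lay 118 bp from a TSS of CG7841.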
